A study of Mus musculus with 8 samples.

Results

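Of 14351 genes with a named probe set on the colon arrays, 10 genes of regulatory T cells and T cell costimulation are described here: Foxp3, Ikzf2, Il2ra, Il2rb, Il10, Cd28, Ctla4, Icos, Tnfrsf18 and Tnfrsf4. They were listed by name, with earlier results of these data known, all 10 were measured, and 11 of the 26180 probe sets read them, since Tnfrsf18 has 2. Colon RNA came from adult mice of the STAT5b-/- genotype (3 arrays, 1 male and 2 female), from a wild type sample titled REF (female) and from wild type mice titled WT (3 arrays, all female). The 2 REF columns hold the same values to within 2.47e-07 and were counted as 1 sample, and what REF stands for is not explained in the labels. The labels name no strain, no exact age and no removed part of the gene, and leave unsaid whether each replicate is its own animal. The p-values therefore cover the variation among these arrays alone, and that may be technical.

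Regulatory T cells are CD4 T cells that restrain other immune cells, and the gut wall is rich in them. Their identity rests on the transcription factor Foxp3, and interleukin-2, bound by a receptor of alpha, beta and common gamma chains, sustains them through JAK kinases and STAT5. Costimulation is the further signal, beside the antigen receptor, that a T cell receives when CD28, ICOS or TNF receptor relatives such as GITR (Tnfrsf18) and OX40 (Tnfrsf4) meet ligands on other cells, while CTLA-4 competes with CD28 for the same ligands.

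Values are linear and relative: each was divided by the WT mean of its probe set, so 1 is the WT mean and levels of different genes cannot be compared. For the same reason, markers of colon tissue cannot show here whether they were present or absent. Folds and log2 fold changes come from means of log2 ratios and are given with the standard error (SE) of the limma fit. Genes that passed had a limma adjusted p under 0.05 over all 14351 genes. The targeted gene did not follow the labels: Stat5b had ratios of 1.16, 1.17 and 1.26 in the arrays labelled STAT5b-/-, 1.18 in REF, and 1.08, 0.930 and 0.993 in the WT arrays (log2 fold change 0.26 ± 0.12, limma adjusted p = 0.175). All 3 of its values lay above the WT arrays, and which part of the gene its probe set reads is not given, so every direction below rests on the labels.

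Il10 and Cd28 were lower in the arrays labelled STAT5b-/-. Il10, the cytokine by which regulatory T cells and macrophages calm the gut wall, was 3.94-fold lower, and Cd28, the founding costimulatory receptor of T cells, was 2.82-fold lower. The remaining 8 genes did not pass, Foxp3 among them. Thus 0 of the 10 genes were called higher, against 13.3% of all genes, and 2 of 10 were called lower, against 8.42% of all genes. Over all genes 1910 were called higher and 1209 lower, and with quantile normalization, which gives all arrays one distribution, 158 and 239. Before it, the SD of log2 ratios over the array was 0.2886 to 0.363 in the WT arrays, which the division by the WT mean narrows. It was 0.6459 to 0.7369 in the arrays labelled STAT5b-/-. Quantile normalization makes these spreads equal, so a call that ended with it does not settle whether the gene changed. In either direction 20% of the 10 genes and 21.7% of all genes passed, shares that are close. At an unadjusted p under 0.05 there were 6 of the 10 genes and 35.1% of all genes. Their median log2 fold change was -0.22, against 0.007 over all genes, and it lay below 0 in 7 of the 10 genes and in 49.4% of all genes. At least 2-fold in either direction were 3 of the 10 genes (Il10, Cd28 and Ikzf2) and 9.39% of all genes. RNA came from whole tissue, so fewer cells of a type and less RNA per cell cannot be told apart.

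**Figure D1:**
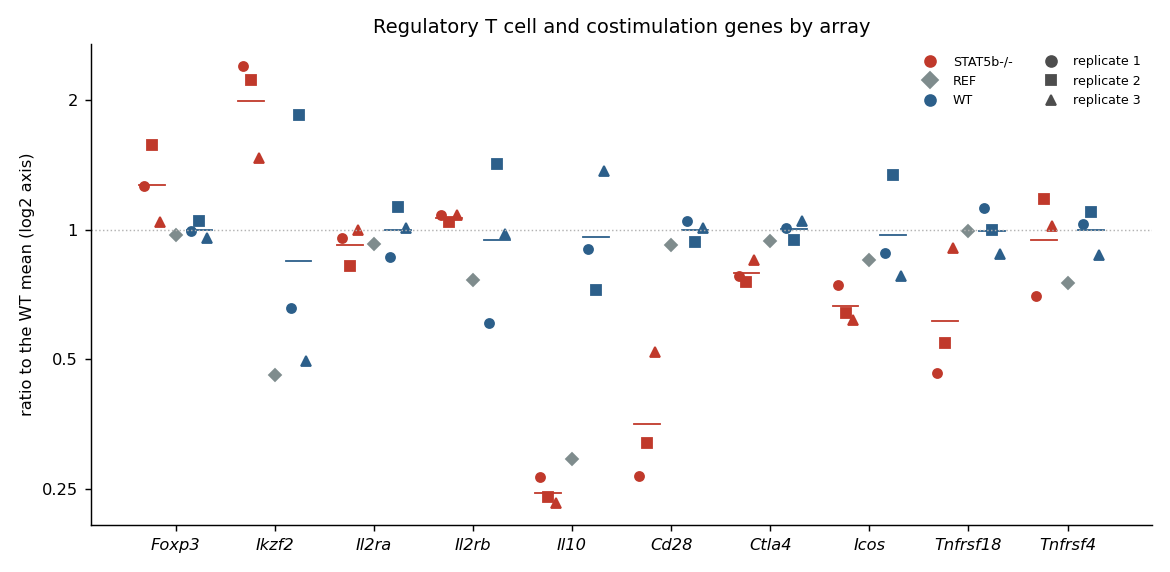
Ratio to the WT mean of each of the 10 genes in the 3 arrays labelled STAT5b-/- (red, left), REF (grey diamond) and the 3 WT arrays (blue, right), on a log2 axis; marker shapes give the replicate and bars the mean of log2 ratios. All 3 red points of Il10 and Cd28 lie below their blue points, and REF lies beside the red points for Il10 and beside the blue ones for Cd28.

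Foxp3, the factor that defines regulatory T cells, had ratios of 1.26, 1.57 and 1.04 in the arrays labelled STAT5b-/-, 0.970 in REF, and 0.995, 1.05 and 0.955 in the WT arrays. Its lowest value among the arrays labelled STAT5b-/-, in replicate 3, lay just under the highest WT value, so the groups overlapped, although the other 2 arrays lay above every WT array. The log2 fold change was 0.35 ± 0.17 with a 95% interval of -0.06 to 0.76 (limma adjusted p = 0.206). The highest value was 1.51 times the lowest in the arrays labelled STAT5b-/- and 1.10 times in the WT arrays.

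The STAT binding motif is shown for the promoters in which it occurred, because STAT5 is the factor named in the genotype. Promoters of 5 of the 10 genes were matched in RefSeq sequences of build GRCm38.p6: Foxp3 with 2 starts, Ctla4, Il2ra, Tnfrsf4 and Tnfrsf18. The 250 bases before each start were searched for TTCNNNGAA, which reads the same on both strands. It was found at 1 of the Foxp3 starts (chrX:7580318-7580378, plus strand, motif beginning 139 bases before the start) and at Tnfrsf18 (chr4:156026197-156026257, plus strand, 99 bases before the start), with the motif in capitals.
Foxp3: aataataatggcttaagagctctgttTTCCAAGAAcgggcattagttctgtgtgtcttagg
Tnfrsf18: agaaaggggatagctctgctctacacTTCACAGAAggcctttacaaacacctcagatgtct
Of all 32851 promoters of the same length in the RefSeq table, 7.02% hold the motif. Neither Foxp3 nor Tnfrsf18 passed the test, and a match is a description of the letters only.

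Ikzf2, which encodes Helios, a zinc finger factor of thymus-derived regulatory T cells, had ratios of 2.40, 2.23 and 1.47 in the arrays labelled STAT5b-/-, 0.460 in REF, and 0.658, 1.85 and 0.496 in the WT arrays. WT replicate 2 lay within the range of the arrays labelled STAT5b-/-, while the other WT arrays and REF lay well below them. The log2 fold change was 1.23 ± 0.48 (limma adjusted p = 0.120). Without WT replicate 2 it was 1.80 and passed (limma adjusted p = 0.0038). Ikzf2 varied more among the WT arrays than any other of the 10 genes, with a highest value 3.72 times the lowest, against a median of 1.36 over all genes.

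The alpha and beta chains of the interleukin-2 receptor did not pass. Il2ra, the alpha chain or CD25, which gives the receptor its high affinity, had ratios of 0.954, 0.823 and 0.999 in the arrays labelled STAT5b-/-, 0.925 in REF, and 0.865, 1.13 and 1.01 in the WT arrays. The groups overlapped, and the 95% interval of the log2 fold change was -0.47 to 0.25 around -0.11 (limma adjusted p = 0.668). Il2rb, the beta chain shared with the interleukin-15 receptor, had ratios of 1.08, 1.04 and 1.08 in the arrays labelled STAT5b-/-, 0.764 in REF, and 0.606, 1.42 and 0.979 in the WT arrays. The arrays labelled STAT5b-/- were nearly equal and lay inside the wide WT range, for which WT replicate 2 gave the upper end and WT replicate 1 the lower. Its log2 fold change was 0.18 ± 0.29 (limma adjusted p = 0.721).

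Il10 had ratios of 0.266, 0.239 and 0.232 in the arrays labelled STAT5b-/-, 0.293 in REF, and 0.901, 0.726 and 1.37 in the WT arrays. The arrays labelled STAT5b-/- lay close together and all below the WT arrays, and the wild type REF sample lay just above them and far below the WT arrays. The log2 fold change over WT was -1.98 ± 0.24, with a 95% interval of -2.54 to -1.41 (limma adjusted p = 0.00228). Against REF it was -0.26 ± 0.34 and did not pass (limma adjusted p = 0.770). REF itself differed from WT by -1.72 ± 0.41 (unadjusted p = 0.0119, limma adjusted p = 0.998, with 1 sample against 3). No gene passed for REF over WT by limma (0% of all genes), and 208 genes (1.45%) had an unadjusted p under 0.05. Both differences share the WT arrays. The Il10 call ended with quantile normalization (log2 fold change -1.57, limma adjusted p = 0.137).

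Cd28 had ratios of 0.268, 0.320 and 0.520 in the arrays labelled STAT5b-/-, 0.921 in REF, and 1.05, 0.938 and 1.01 in the WT arrays. REF lay beside the WT arrays, which differed by 1.12 times, and replicate 3 was the highest of the arrays labelled STAT5b-/-. The log2 fold change over WT was -1.49 ± 0.25, with a 95% interval of -2.08 to -0.91 (limma adjusted p = 0.00709). Of the 17 alternative fits, the one over 3 groups equals the reported one, and sex as a covariate equals leaving out the 1 male. Choices among probe sets leave Cd28, which has 1, at the same values. Its log2 fold change passed in all 17 fits, at adjusted p values of 0.00247 to 0.0393. Against REF alone it was -1.38 ± 0.35 and did not pass (limma adjusted p = 0.0745, 0.0257 without STAT5b-/- replicate 3). In that comparison 0 of the 10 genes were called, against 3.44% of all genes called higher and 2.39% called lower (5.83% together). At an unadjusted p under 0.05 there were 2 (Cd28 and Ikzf2), or 20%, against 19.5% of all genes.

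Ctla4 and Icos lie next to Cd28 on chromosome 1 with 0 other protein-coding genes between them in the RefSeq order, and encode receptors of the same family. Ctla4, the inhibitory receptor of regulatory T cells, had ratios of 0.781, 0.756 and 0.850 in the arrays labelled STAT5b-/-, 0.940 in REF, and 1.01, 0.946 and 1.05 in the WT arrays. Icos, the inducible costimulator, had ratios of 0.745, 0.640 and 0.616 in the arrays labelled STAT5b-/-, 0.852 in REF, and 0.883, 1.34 and 0.779 in the WT arrays. In both genes every array labelled STAT5b-/- lay below every WT array, by a narrow margin, and REF lay between the groups for Ctla4 and inside the WT range for Icos.

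The log2 fold changes were -0.33 ± 0.12 for Ctla4 and -0.55 ± 0.22 for Icos, and neither passed (limma adjusted p = 0.0947 and 0.125). With Il10 and Cd28 these were 4 genes whose groups did not overlap, all lower, or 40% of the 10 genes, where 41.5% of all genes did not overlap in either direction, 16.5% lying lower and 25% higher. Within each array, the log2 ratio of Cd28 to Ctla4 averaged -1.16 ± 0.42 in the arrays labelled STAT5b-/- and -0.00 ± 0.06 in the WT arrays (SD, n = 3 each; exact permutation test, two-sided, p = 0.1, the smallest that 3 against 3 allows; 0.2 adjusted over 4 gene pairs). That of Cd28 to Icos averaged -0.91 ± 0.62 in the arrays labelled STAT5b-/- and 0.04 ± 0.48 in the WT arrays (exact permutation p = 0.2, 0.267 adjusted), and for Ctla4 to Icos the test gave p = 0.6 (exact permutation, 0.6 adjusted). With 3 arrays a group this test could not pass 0.05, so it does not settle whether Cd28 and its neighbours changed unequally.

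Tnfrsf18 and Tnfrsf4 are likewise neighbours, on chromosome 4, and encode GITR and OX40, TNF receptor relatives that regulatory T cells carry at rest and other T cells gain on activation. Tnfrsf18, as the mean of its probe sets, had ratios of 0.465, 0.545 and 0.908 in the arrays labelled STAT5b-/-, 0.993 in REF, and 1.12, 1.00 and 0.880 in the WT arrays. Replicate 3 of the arrays labelled STAT5b-/- lay within the WT range and the other 2 lay well below it. The log2 fold change was -0.70 ± 0.26 (limma adjusted p = 0.102), and without STAT5b-/- replicate 3 it was -0.98 and passed (limma adjusted p = 0.0238). Its 2 probe sets gave -0.71 and -0.69.

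Tnfrsf4 had ratios of 0.703, 1.18 and 1.02 in the arrays labelled STAT5b-/-, 0.751 in REF, and 1.03, 1.10 and 0.874 in the WT arrays. Both the highest and the lowest value belonged to arrays labelled STAT5b-/-, and Tnfrsf4 was at -0.07 ± 0.22 on the log2 scale (limma adjusted p = 0.856). Within each array, the log2 ratio of Tnfrsf18 to Tnfrsf4 averaged -0.63 ± 0.47 in the arrays labelled STAT5b-/- and -0.00 ± 0.13 in the WT arrays (SD, n = 3 each; exact permutation p = 0.1, 0.2 adjusted).

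**Figure D2:**
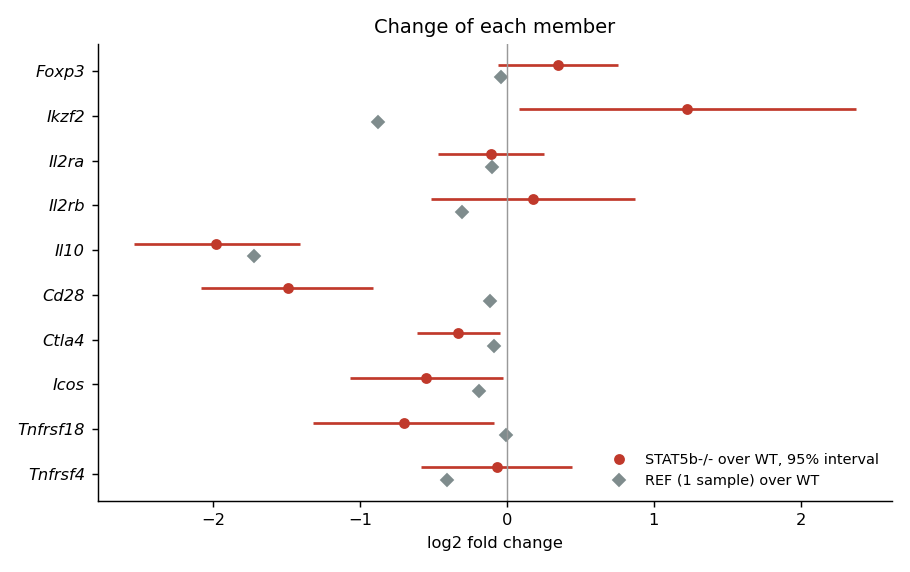
Log2 fold change over WT of each of the 10 genes: red points with 95% intervals for the arrays labelled STAT5b-/-, grey diamonds for the single REF sample. The interval of Il10 runs from -2.54 to -1.41 and that of Cd28 from -2.08 to -0.91; the diamond of Il10, at -1.72, is the only one beyond -1.

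Across samples, WT replicate 2 was the highest WT array in 6 of the 10 genes (Foxp3, Ikzf2, Il2ra, Il2rb, Icos and Tnfrsf4), as it was in 48.9% of all genes. REF lay below the WT mean in all 10 genes, from 0.293 for Il10 to 0.993 for Tnfrsf18. Its median log2 fold change over WT was -0.15 for the 10 genes and -0.05 over all genes. The median ratio of REF over the array was 0.9481, so its lying below the WT mean need not be particular to the 10 genes. For REF the share of all genes below the WT mean was not computed. Replicate 3 was the array labelled STAT5b-/- nearest to the WT mean in Cd28, Tnfrsf18, Tnfrsf4, Ctla4, Foxp3, Ikzf2 and Il2ra. In this group the SD of log2 ratios over the array was 0.6459 in replicate 3, 0.7369 in replicate 1 and 0.6999 in replicate 2. Replicate 3 thus had the smallest spread of its group, and its nearness to WT need not be particular to the 10 genes. The share of all genes with this order was not computed.

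The genes nearest in course over the 7 samples were found by the mean absolute difference in log2 ratio among 14127 other named genes. Nearest to Cd28 were Bhlha15 (0.110), a transcription factor of secretory cells, Frzb (0.114), a secreted Wnt antagonist, and Stc2 (0.116), where the median gene differed by 0.775. Nearest to Il10 were Plscr2 (0.295), Itih2 (0.320) and Slc16a7 (0.348), a monocarboxylate transporter, against a median of 1.29. Plscr2 had a ratio of 0.214 in REF, as low as in the arrays labelled STAT5b-/- (0.210, 0.321 and 0.260), whereas Itih2 and Slc16a7 were at 0.607 and 0.703 in REF, above the 0.293 of Il10. Nearest to Foxp3 were Rab12 (0.0462), Btbd9 (0.0575) and Asb12 (0.058), against a median of 0.326.

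The lists that follow are to be read against the shares of all genes, 13.3% called higher and 8.42% called lower. Of 15 T cell markers measured, 3 rose and 1 fell, with a median log2 fold change of 0.11. The genes that rose were chains of the CD3 complex, which carries the signal of the antigen receptor: Cd3d rose by 1.02 ± 0.22, Cd3e by 0.85 ± 0.21 and Cd3g by 0.79 ± 0.155 on the log2 scale (limma adjusted p = 0.0188, 0.0294 and 0.0131). Cd3d had ratios of 1.72, 2.42 and 1.90 in the arrays labelled STAT5b-/-, 0.812 in REF, and 1.20, 1.06 and 0.740 in the WT arrays. The adhesion receptor Cd2 fell by 1.24 ± 0.18 (limma adjusted p = 0.00459), with REF at 1.08. Cd247, the zeta chain, and Cd4, the coreceptor that regulatory T cells carry, had log2 fold changes of -0.05 ± 0.14 and -0.26 ± 0.21 (limma adjusted p = 0.826 and 0.460). The call of Cd3g ended without STAT5b-/- replicate 2 (adjusted p = 0.0591), and that of Cd3d without STAT5b-/- replicate 2 (0.0732) or 3 (0.0604). That of Cd3e ended without STAT5b-/- replicate 1 (0.0882) or 3 (0.103) or WT replicate 1 (0.0785) or 3 (0.0802). With quantile normalization the calls of Cd3e, Cd3d, Cd3g and Cd2 ended (limma adjusted p = 0.143, 0.38, 0.393 and 0.155).

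Set against the mean log2 ratio of Cd3e, Cd3d, Cd3g and Cd247 in the same array, Cd28 averaged -2.14 ± 0.51 in the arrays labelled STAT5b-/- and 0.01 ± 0.13 in the WT arrays (SD, n = 3 each). Il10 averaged -2.67 ± 0.08 in the arrays labelled STAT5b-/- and -0.04 ± 0.55 in the WT arrays. Foxp3 averaged -0.29 ± 0.30 in the arrays labelled STAT5b-/- and 0.01 ± 0.05 in the WT arrays, and its groups still overlapped. The CD3 mean itself was 0.64 ± 0.03 in the arrays labelled STAT5b-/-, -0.32 in REF and -0.01 ± 0.09 in the WT arrays, so on this scale every gene is set lower in the arrays labelled STAT5b-/-. On it 7 of the 10 genes lay lower without overlap, and so did 66.5% of all genes, while 0 of the 10 and 4.78% of all genes lay higher. The scale depends on the markers chosen. Of the 15 T cell markers the 3 that rose were CD3 chains, Cd2 fell by 1.24 ± 0.18, and the list median was 0.11.

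**Figure D3:**
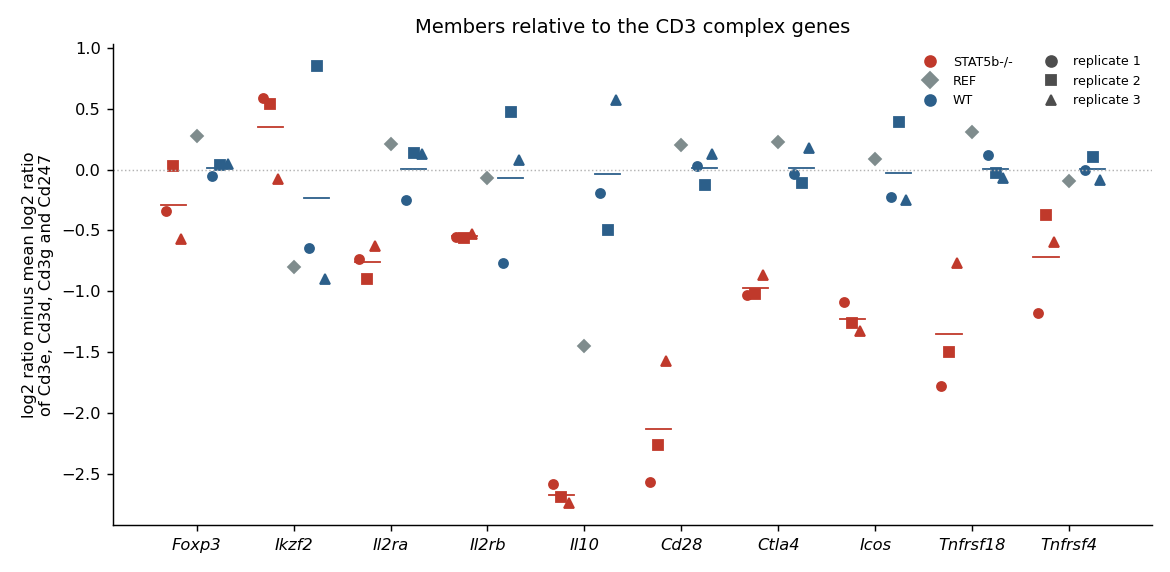
Log2 ratio of each of the 10 genes minus the mean log2 ratio of Cd3e, Cd3d, Cd3g and Cd247 in the same array, with colours, order and shapes as in the plot of ratios by array and bars for group means. Red points of Il10 and Cd28 lie lowest, at means of -2.67 and -2.14, while those of Foxp3, Ikzf2 and Il2rb overlap the blue points.

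Genes that send or receive the interleukin-2 family signal were described next, 30 in number and all measured. Of these, 2 rose and 5 fell, with a median log2 fold change of -0.18 over WT for the arrays labelled STAT5b-/- and -0.20 for REF. Il15, a cytokine of epithelium and myeloid cells that signals through the chain encoded by Il2rb, rose 7.66-fold, with ratios of 8.48, 7.17 and 6.75 in the arrays labelled STAT5b-/-, 1.39 in REF, and 0.744, 0.919 and 1.34 in the WT arrays (limma adjusted p = 0.000531). The groups were far apart for Il15, though with quantile normalization it was at 1.65 on the log2 scale and did not pass (limma adjusted p = 0.0809), while its presenting receptor Il15ra fell by 0.73 ± 0.18 (limma adjusted p = 0.0296).

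Il2rg, the common gamma chain, fell by 0.81 ± 0.17 (limma adjusted p = 0.0178), with ratios of 0.613, 0.552 and 0.531 in the arrays labelled STAT5b-/-, 0.998 in REF, and 1.16, 0.790 and 1.06 in the WT arrays. It was thus the one chain of the interleukin-2 receptor that passed. Il2 itself had a log2 fold change of -0.29 ± 0.42 and Stat5a, the close relative of Stat5b, one of -0.24 ± 0.15 (limma adjusted p = 0.680 and 0.306). Of survival and feedback genes, Bcl2 and Socs3 fell by 1.31 ± 0.17 and 1.22 ± 0.13, Bcl2l1 rose by 0.96 ± 0.13, and the cytokine Il4 fell by 1.03 ± 0.26 (limma adjusted p = 0.00266, 0.00159, 0.00309 and 0.0341). The calls of Il2rg, Il15ra and Il4 each ended in 4 of the 6 fits that left out 1 array. For Il2rg these were without STAT5b-/- replicate 2 (adjusted p = 0.0712) or 3 (0.0731) or WT replicate 1 (0.0502) or 3 (0.0611). For Il15ra they were without STAT5b-/- replicate 1 (0.103), 2 (0.0824) or 3 (0.0893) or WT replicate 3 (0.073), and for Il4 without STAT5b-/- replicate 1 (0.12), 2 (0.107) or 3 (0.0583) or WT replicate 1 (0.0514).

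The receptor of interleukin-10 was measured in both chains. Il10ra, which binds the cytokine, fell by 0.55 ± 0.155 (limma adjusted p = 0.0453), with ratios of 0.625, 0.658 and 0.751 in the arrays labelled STAT5b-/-, 0.781 in REF, and 1.03, 1.13 and 0.845 in the WT arrays. REF lay between the groups, and the Il10ra call remained in only 1 of the 6 fits that left out 1 array, the one without WT replicate 3 (adjusted p = 0.0395). It was 0.138 without STAT5b-/- replicate 1 or 2, 0.0801 without replicate 3, 0.108 without WT replicate 1 and 0.0669 without WT replicate 2. Il10rb, the chain shared with other cytokine receptors, was at 0.61 ± 0.30 on the log2 scale and did not pass (limma adjusted p = 0.205).

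The measured ligands of CD28, CTLA-4, ICOS and OX40 did not pass. Cd86 and Cd80, which bind both CD28 and CTLA-4, had log2 fold changes of -0.49 ± 0.18 and -0.29 ± 0.31 (limma adjusted p = 0.096 and 0.568). Cd86 passed without STAT5b-/- replicate 1 (adjusted p = 0.0493). Icosl, the ligand of ICOS, and Tnfsf4, that of OX40, had log2 fold changes of -0.01 ± 0.20 and -0.36 ± 0.22 (limma adjusted p = 0.972 and 0.309), and Tnfsf18 had no matched probe set. Of 18 costimulatory and coinhibitory ligand genes measured, 2 rose and 0 fell, with a median of -0.33 and one of -0.25 for REF over WT. The median ratio of this list was 0.684 to 0.905 in the arrays labelled STAT5b-/- and 0.809 to 1.18 in the WT arrays, so the groups overlapped. The risen genes were Nectin2 by 1.22 ± 0.19 and Pvr by 0.80 ± 0.15 (limma adjusted p = 0.00582 and 0.0117), adhesion molecules also made by epithelium, and Pvr lost its call without STAT5b-/- replicate 1 (adjusted p = 0.05).

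Of 28 genes of CD28 and antigen receptor signalling, 1 rose and 1 fell, with a median of -0.08. Csk, the kinase that restrains Lck, rose by 0.72 ± 0.19, and Ptprc, the phosphatase CD45 found on all white blood cells, fell by 0.84 ± 0.13 (limma adjusted p = 0.0376 and 0.00632). Ptprc had ratios of 0.615, 0.502 and 0.561 in the arrays labelled STAT5b-/-, 0.741 in REF, and 1.01, 1.07 and 0.921 in the WT arrays. The Csk call ended without STAT5b-/- replicate 1 (adjusted p = 0.121), 2 (0.0907) or 3 (0.114) or WT replicate 3 (0.0608).

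Of 45 further genes used by regulatory T cells, 4 rose and 8 fell, with a median of -0.24 and one of -0.18 for REF over WT. Irf4, a transcription factor of activated T cells and plasma cells, fell by 2.24 ± 0.20, with ratios of 0.207, 0.166 and 0.269 in the arrays labelled STAT5b-/-, 0.763 in REF, and 0.912, 1.10 and 0.984 in the WT arrays (limma adjusted p = 0.000771). Entpd1, the ectoenzyme CD39 that breaks down extracellular ATP, fell by 0.94 ± 0.14 (limma adjusted p = 0.00482). The chemokine receptor Ccr7 fell by 0.71 ± 0.17, and Il1rl1, the interleukin-33 receptor of some tissue regulatory T cells, by 1.01 ± 0.24 (limma adjusted p = 0.0284 and 0.025).

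Prdm1, which encodes Blimp-1 and is used by plasma cells, T cells and epithelium, rose by 1.64 ± 0.15, with ratios of 3.22, 2.78 and 3.34 in the arrays labelled STAT5b-/-, 0.992 in REF, and 0.854, 1.13 and 1.01 in the WT arrays (limma adjusted p = 0.000908). The transcription factors Satb1 and Foxo1 rose by 0.89 ± 0.14 and 0.88 ± 0.17, and Areg, a growth factor of the EGF family, by 2.62 ± 0.72 (limma adjusted p = 0.00589, 0.012 and 0.0424). Areg spread widely among the WT arrays, at 2.17, 0.244 and 0.584. Foxo1 lost its call without STAT5b-/- replicate 2 (adjusted p = 0.0559). Areg lost its call without STAT5b-/- replicate 1 (0.107), 2 (0.127) or 3 (0.119) or WT replicate 3 (0.112). Ccr7 lost it without STAT5b-/- replicate 1 (0.0896) or 2 (0.101) or WT replicate 1 (0.0796) or 3 (0.0773), and Il1rl1 without the same arrays (0.0751, 0.0599, 0.0693 and 0.0574 in that order). Over all lists but those of other cell types, 27 of 133 genes passed (20.3%, near the 21.7% of all genes), and with quantile normalization 3 of these 27 did (Irf4, Prdm1 and Socs3).

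**Figure D4:**
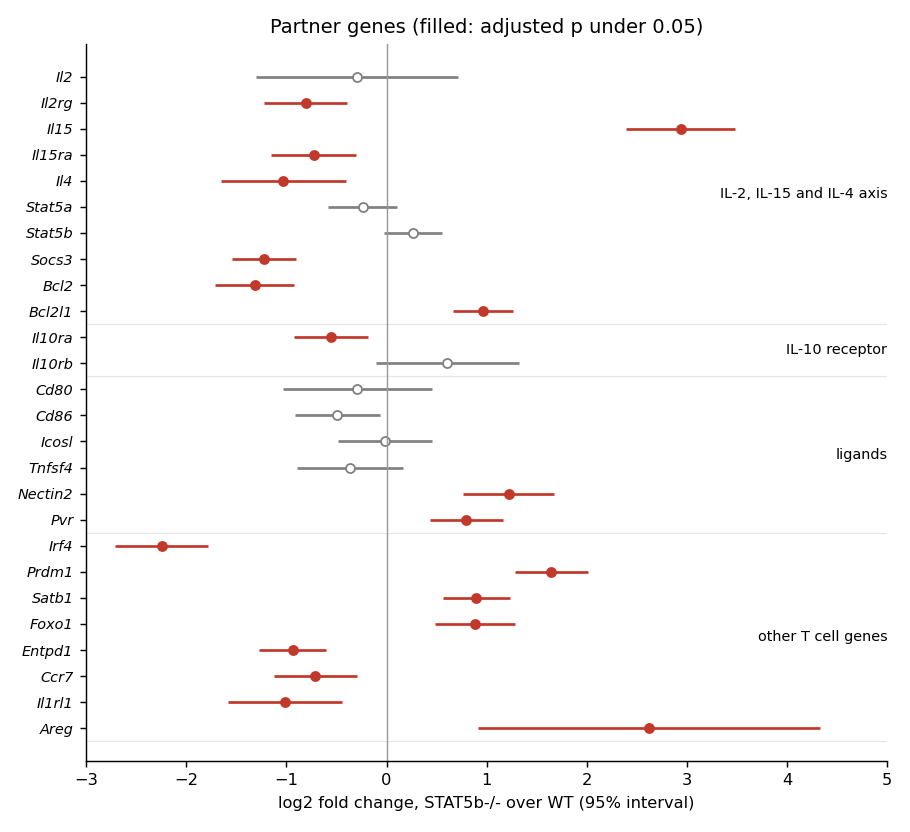
Log2 fold change over WT, in the arrays labelled STAT5b-/-, of genes that partner the 10 genes, with 95% intervals; filled red points passed the limma test and open grey points did not. The points of Il15 at 2.94 and Irf4 at -2.24 lie at the ends, and the ligands Cd80, Cd86, Icosl and Tnfsf4 are open.

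Markers of other cell types, some of which also make these genes, were counted in the same way, and their part in the results for the 10 genes was not tested. Of 10 genes shared by all white blood cells, 0 rose and 7 fell, and the median ratio of the list was 0.488 to 0.556 in the arrays labelled STAT5b-/-, 0.883 in REF and 0.921 to 1.07 in the WT arrays. Cd53 fell by 1.66 ± 0.16 and Arhgdib by 1.21 ± 0.12 (limma adjusted p = 0.000917 and 0.00121). Macrophages and dendritic cells are another source of Il10, and 7 of their 13 markers fell and 0 rose, with median ratios of 0.563 to 0.718 in the arrays labelled STAT5b-/-, 1.03 in REF and 0.890 to 1.13 in the WT arrays. Mrc1 fell by 1.92 ± 0.19 and Lyz2 by 1.33 ± 0.19 (limma adjusted p = 0.00107 and 0.00416). With quantile normalization the calls of Arhgdib and Lyz2 ended (limma adjusted p = 0.0585 and 0.0519). In REF, where Il10 was at 0.293, Mrc1 was at 0.937 and Lyz2 at 1.01.

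B and plasma cells use Irf4 and Prdm1, and 5 of their 11 markers fell and 0 rose, with log2 fold changes of -2.65 ± 0.27 for Mzb1 and -2.11 ± 0.23 for Tnfrsf17 (limma adjusted p = 0.00126 and 0.0015). Their median ratio was 0.264 to 0.428 in the arrays labelled STAT5b-/-, 0.853 in REF and 0.824 to 1.04 in the WT arrays. NK and cytotoxic lymphocytes carry Il2rb, and 5 of their 12 markers rose and 0 fell, with median ratios of 1.14 to 1.82 in the arrays labelled STAT5b-/-, 0.764 in REF and 0.763 to 1.30 in the WT arrays. Ccl5 rose by 2.38 ± 0.27 and Nkg7 by 1.45 ± 0.16 (limma adjusted p = 0.00194 and 0.00176). Among the WT arrays the list median, like Il2rb, was lowest in replicate 1 and highest in replicate 2. That order is not particular to this list: the T cell and macrophage lists had it too. WT replicate 2 was the highest WT array in 48.9% of all genes. With quantile normalization the call of Nkg7 ended (log2 fold change 0.90, limma adjusted p = 0.16).

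Of 9 innate lymphoid cell markers 1 rose and 2 fell, Areg and Il1rl1 from the list above and Ahr, a receptor for dietary and microbial compounds, at -0.47 ± 0.11 (limma adjusted p = 0.0255). The Ahr call ended with quantile normalization (0.255). Of the fits that left out 1 array it was kept only without WT replicate 2 (0.0318), and the adjusted p was 0.0665, 0.0852 and 0.104 without STAT5b-/- replicates 1, 2 and 3, and 0.0679 and 0.0653 without WT replicates 1 and 3. Median ratios of that list lay close, at 0.732 to 0.903 in the arrays labelled STAT5b-/-, 0.908 in REF and 0.912 to 1.08 in the WT arrays. Of 10 mast cell markers 4 fell and 0 rose, with log2 fold changes of -3.81 ± 0.62 for Mcpt1 and -4.15 ± 0.85 for Mcpt2 (limma adjusted p = 0.00678 and 0.0153, the call of Mcpt2 ending at 0.0601 without STAT5b-/- replicate 1 and 0.06 without replicate 3). With quantile normalization both calls ended, at log2 fold changes of -2.24 for Mcpt1 and -1.97 for Mcpt2 (limma adjusted p = 0.224 and 0.601). Their median ratio was 1.44 in WT replicate 2, against 0.725 and 0.748 in the other WT arrays. Epithelial markers, 9 in number, rose in 3 and fell in 1, with median ratios of 1.27 to 1.36 in the arrays labelled STAT5b-/-, 1.08 in REF and 0.995 to 1.03 in the WT arrays.

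**Figure D5:**
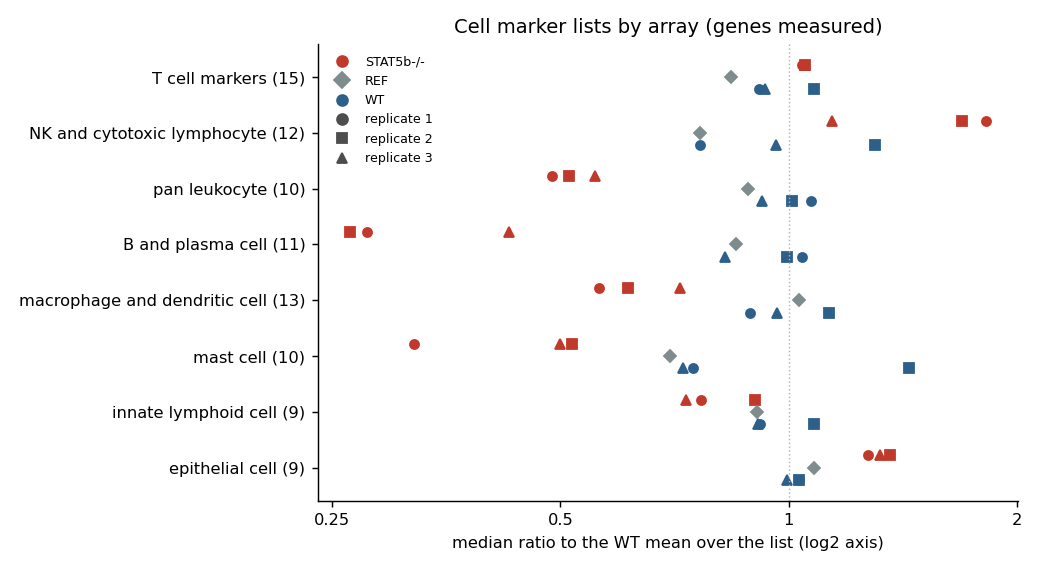
Median ratio to the WT mean over each list of cell markers (number of genes measured in brackets) in the 3 arrays labelled STAT5b-/- (red, upper), REF (grey diamond) and the 3 WT arrays (blue, lower), on a log2 axis. The red points of the leukocyte, B cell, macrophage and mast cell lists lie below all blue points. Those of the innate lymphoid list do so by a narrow margin. The red points of the epithelial list lie above the blue ones, and those of the T cell list inside the blue range.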

How the data were processed

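Total RNA of mouse colon, 100 ng per sample, was amplified, labelled with biotin and hybridised to Affymetrix arrays, per the labels' protocols. The submitters' processing notes name RMA; its version, the array type and the genome build are not given in the sources used here. The deposited values are linear ratios: the 3 WT arrays of each probe set average 1, with deviations of at most 1.87e-07, which shows that the authors had divided by that average. The lowest value, 0.01, was reached in 19 probe sets and in none of the 10 genes. Ratios hide signal strength, so dim probe sets could not be filtered. The number of arrays limits the precision.

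RefSeq accessions in the probe set names matched 15228 of 26180 probe sets to 1 symbol and left 10952 unnamed (assembly GRCm38.p6, used for names, gene order and promoter sequences). Log2 was taken of the ratios without a pseudocount, and genes with several probe sets were given their mean. The comparisons, STAT5b-/- over WT (6 arrays), REF over WT (4) and STAT5b-/- over REF (1 fit of 7, REF taken to vary like the others), used limma 3.58.1 (lmFit, eBayes) in R 4.3.3, two-sided, with Benjamini-Hochberg adjustment over 14351 genes; the code was tested on simulated data.

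The 10 genes and all lists were chosen with earlier results of these data known. Named beside the 10 genes were Stat5a and Stat5b, their binding partners, CD3 chains and Cd4, up to 5 called genes per direction of each pathway list and up to 2 of each marker list by smallest p, and 3 nearest genes by log2 ratio. Krt20, Vil1 and Krt18 were taken by this rule and are given as counts. One gene that the rule takes is not reported here.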

Additional observations from a re-analysis of the deposited data

How the results depend on the processing

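The fall of Cd28 passed in all 17 alternatives and that of Il10 in 16, and Foxp3, Il2ra, Il2rb, Ctla4, Icos and Tnfrsf4 passed in none. Quantile normalization gives all arrays the same spread, although the division by the WT mean narrows the WT arrays. It left 158 genes higher and 239 lower, against 1910 and 1209, so that 1 of the 10 genes (Cd28) was lower, and 1 pathway gene was higher and 2 lower, against 12 and 15. Leaving out 1 array gave 1053 to 2192 genes higher and 663 to 1359 lower, 0 to 1 of the 10 genes higher, 2 to 3 lower, and 7 to 15 pathway genes higher and 6 to 17 lower. Sex as a covariate equals leaving out the 1 male (1180 and 734). Requiring at least 2-fold left 721 and 514 genes, and 5 and 8 pathway genes. With the replicate number as a block 1238 genes were higher and 801 lower, with Il10 and Cd28 still lower. Deviations of same-numbered arrays correlated at r = 0.036, -0.098 and -0.186, and those of differently numbered arrays at -0.137 to 0.216. With 3 arrays a group these values cannot decide whether the numbers pair the samples. For STAT5b-/- over WT the fit over 3 groups equals the reported one, since a lone sample adds nothing to the spread; for REF over WT, reported from 4 arrays, its adjusted p values differed and 0 of the 10 genes passed in either.

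Small changes of genes that did not pass changed sign. Over WT, leaving out 1 array gave -0.2304 to 0.1465 for Tnfrsf4, -0.143 to 0.4691 for Il2rb, -0.5336 to 0.0615 for Cd80, -0.1283 to 0.143 for Icosl, -0.6047 to 0.1944 for Il2 and -0.146 to 0.0222 for Cd247. Icosl was at 0.0129 with median centring, Tnfrsf4 at 0.1465 with sex as a covariate, and with REF as a further WT sample Tnfrsf4 was at 0.0315 and Cd247 at 0.0042. For REF over WT, Foxp3 and Tnfrsf18 were at 0.0262 and 0.0445 with quantile normalization and at 0.0245 and 0.0636 with median centring; without 1 array Tnfrsf18 ranged over -0.0924 to 0.0808 and Icos over -0.351 to 0.0386. For STAT5b-/- over REF, Il10 was at 0.34 with quantile normalization and Il2ra at -0.0621 to 0.0778 without 1 array. In that comparison 0 to 1 of the 10 genes passed when 1 array was left out: Cd28 without STAT5b-/- replicate 3 and Ikzf2 without WT replicate 2 (adjusted p = 0.00982). The causes were not tested.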
